A study of Mus musculus with 16 samples.

Results

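The genes described here are the ribosomal proteins and translation factors of the lung, that is, the proteins of the cytoplasmic ribosome and the factors that start and extend a protein chain on it. They were chosen by name alone. A probe set, the group of short probes that reports 1 transcript, was taken where its only annotated symbol was that of a ribosomal protein (Rpl, Rps, Rplp0 to Rplp2 or Rpsa) or of an eIF or eEF gene, without pseudogenes and without the S6 kinases. This gave 115 probe sets of 84 genes, out of 8251 genes with 1 symbol. The probe set with the highest mean log2 signal stood for its gene, so that a high signal was part of the choice and is no result. The 84 genes are 17 proteins of the large subunit, 18 of the small subunit, 34 initiation factors, 7 kinases or binding proteins of initiation factors, 6 elongation factors and 2 modifiers of elongation factors.

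Whole lungs of mice that lack T1α (podoplanin, Pdpn), a membrane protein of alveolar type I cells, were compared with lungs of wild type (+/+) mice. The null allele was carried in every cell of the (-/-) animals, and heterozygous parents gave both genotypes. There were 5 (-/-) lungs (replicates A to E) and 5 (+/+) lungs (I to M) at E18.5, day 18.5 of gestation, and 3 (-/-) lungs (F to H) and 3 (+/+) lungs (N to P) at term, taken shortly after delivery. Each was hybridised to its own Affymetrix U74Av2 array, which made 16 arrays. Since whole lung was used, fewer cells of a type and less RNA per cell cannot be told apart.

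The ribosome has a small subunit, which reads the mRNA, and a large subunit, which joins the amino acids. Initiation factors bring the mRNA cap, the initiator tRNA and the small subunit together, elongation factors then carry in each aminoacyl-tRNA and move the ribosome on, and kinases of eIF2 and binding proteins of the cap factor eIF4E hold initiation back under stress. Most mRNAs of ribosomal proteins and elongation factors are known to start at a C followed by a run of pyrimidines, the terminal oligopyrimidine tract. Through it the mTOR pathway sets how much they are translated. Growing fetal tissues are known for a high content of these mRNAs.

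The annotated starts of several genes with a signal that differed between the times are printed for this tract, since it is the sequence feature that the mRNAs of ribosomal proteins and elongation factors share. Each line gives the 15 bases before the RefSeq transcript start and the 15 from it on, 5′ to 3′ on the gene's strand, from GRCm38.p6. Capitals mark a C followed by at least 4 pyrimidines that begins within 5 bases of the start.
Rps18 (chr17:33955651-33955680, minus strand): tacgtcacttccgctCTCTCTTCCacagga
Rps10 (chr17:27635230-27635259, minus strand): gcgccgcgcacgcccCTTCCTTTCCagcct
Rpl7a (chr2:26910792-26910821, plus strand): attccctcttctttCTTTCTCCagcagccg
Eef1a1 (chr9:78481710-78481739, minus strand): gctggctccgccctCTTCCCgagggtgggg
Eif3f (chr7:108934400-108934429, plus strand): tctgttctaggctctCTCTCTTTCTCggca
Eif2s3x (chrX:94212637-94212666, minus strand): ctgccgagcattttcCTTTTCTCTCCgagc
Eif2s3y (chrY:1010580-1010609, plus strand): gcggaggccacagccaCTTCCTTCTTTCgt
Eif4a2 (chr16:23107453-23107482, plus strand): ccgcggaaaccccgtaggagcagggcggcc
Eif3j1 (chr2:122028565-122028594, plus strand): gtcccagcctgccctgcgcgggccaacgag
Rpl41 (chr10:128549154-128549183, minus strand): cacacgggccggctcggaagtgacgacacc
Rps28 (chr17:33824548-33824577, minus strand): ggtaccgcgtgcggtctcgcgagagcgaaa
Rpsa (chr9:120127751-120127780, plus strand): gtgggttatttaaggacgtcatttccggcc

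The first 6 of these genes were lower at term than at E18.5 in at least 1 genotype, and so were Rpl41, Rps28 and Rpsa, which hold no such tract there. Eif4a2 and Eif3j1 were higher, as given below, and Eif2s3y is shown beside its X-linked partner. Of the 21 lower members with a start in the tables, 9 (42.9%) held a tract within 5 bases of it and 4 (19%) exactly at it, so that most held none. The tables held a start for 69 of the 84 genes. A tract exactly at the start was found in 7 of these 69 (10.1%) and in 3.01% of the 27025 genes of the table, or 2.67% of its 17492 protein-coding genes. Within 5 bases of the start it was found in 23 members (33.3%), against 21.2% of all genes. The ETS family motif CCGGAAG, searched on both strands from 250 bases before to 50 bases after the start, was held by 26 members (37.7%), against 9.93% of all genes and 12.9% of protein-coding genes. The YY1 motif AAGATGGCG was held by 6 members (8.7%), against 1.64% of all genes. Some genes have several annotated starts, and a gene was counted where any of them matched, so that genes with more starts could match more often. These are matches of letters at annotated starts, not measured start sites.

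**Figure D1:**
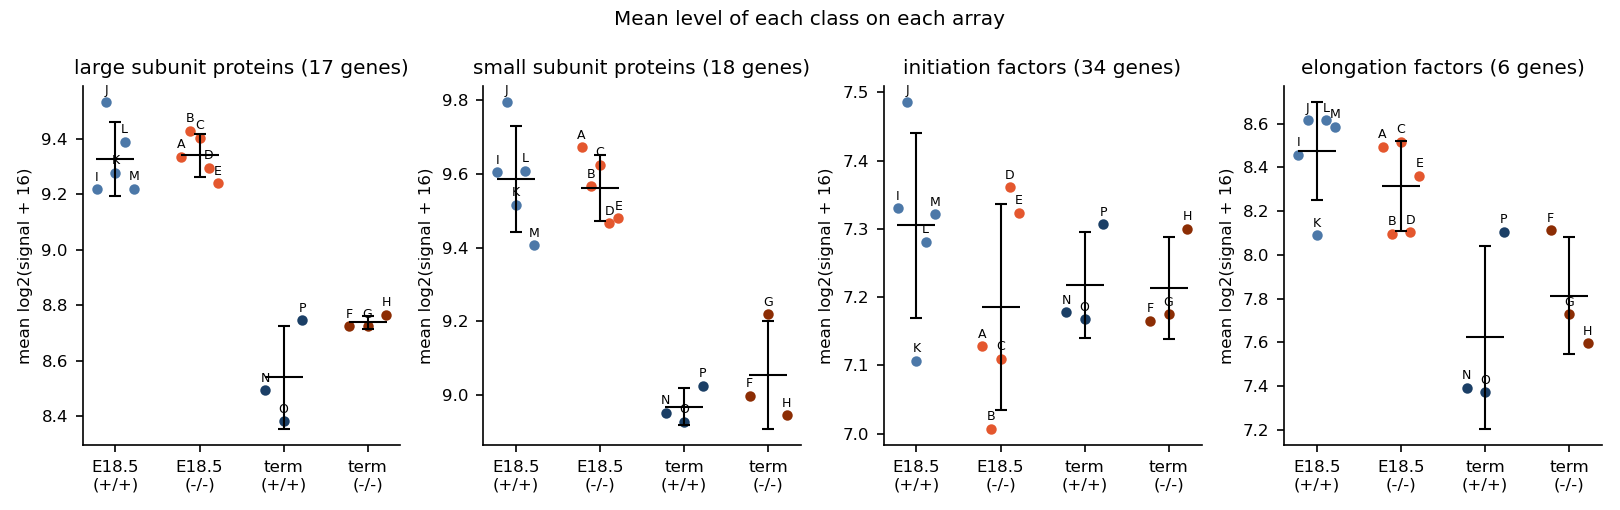
Mean log2(signal + 16) over the genes of a class on each array, in 4 panels for large subunit proteins, small subunit proteins, initiation factors and elongation factors; points are arrays by genotype and time, and bars are the mean ± SD of a group. All term arrays lie below all E18.5 arrays in both ribosomal protein panels, while the initiation factor panel shows term arrays within the E18.5 range.

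Between E18.5 and term, the signals of most ribosomal proteins fell in both genotypes. Initiation factors went both ways, and in the tests given below more of them were lower than higher. The mean log2(signal + 16) over the 17 large subunit proteins lay between 9.22 and 9.53 on the E18.5 (+/+) arrays and between 8.38 and 8.75 on the term (+/+) arrays. In (-/-) lungs it lay between 9.24 and 9.43 at E18.5 and between 8.72 and 8.77 at term. For the 18 small subunit proteins the ranges were 9.41 to 9.79 and 8.93 to 9.02 in (+/+) lungs, and 9.47 to 9.67 and 8.94 to 9.22 in (-/-) lungs. In neither subunit did the times overlap. The summed signal of all 35 ribosomal proteins was 87167 to 159730 at E18.5 and 53899 to 63182 at term in (+/+) lungs, and 104440 to 147690 and 59986 to 72817 in (-/-) lungs.

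The log2 difference of term minus E18.5 had a median of -0.71 over the large subunit proteins in (+/+) lungs and -0.62 in (-/-) lungs, with -0.73 and -0.62 for the small subunit proteins. Over all 12422 probe sets other than controls it was -0.19 and -0.12. Elongation factors had medians of -0.76 and -0.52, initiation factors of -0.06 and 0.06, and the kinases and binding proteins of 0.34 and 0.06. Of the 35 ribosomal proteins, 30 were lower at term in (+/+) lungs and 28 in (-/-) lungs. Of the 34 initiation factors 20 and 15 were, and of all 12422 probe sets 8124 and 7683 were.

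Probe sets were tested with limma where the median signal of at least 1 group in the comparison passed a level of about 50, and 62 of the 84 genes passed in (+/+) lungs and 60 in (-/-) lungs. In (+/+) lungs, 3 members were higher at term at an adjusted p under 0.05, where 10.6% of all probe sets tested were, and 18 were lower, where 7.99% were. In (-/-) lungs, 3 were higher, against 13.8%, and 21 were lower, against 13.0%. The 18 became 4 without replicate N, 5 without O, 9 without J and 11 without L, and of the members named below Rpl6, Rpl41, Rps28, Eef1a1, Eif4a2 and Eif3j1 kept their call in (+/+) lungs whichever array was left out. The 3 higher members were the same in both genotypes. Of those lower, 16 were shared, which is 88.9% of the 18 and 76.2% of the 21. After quantile normalization, which gives all arrays 1 distribution of signals, 3 were higher (10.2% of all tested) and 7 lower (6.79%) in (+/+) lungs, and 4 higher (14.0%) and 11 lower (11.0%) in (-/-) lungs. Differences over time are as deposited unless quantile normalization is named. Centring each array on its median, in place of this, raised all differences over time by 0.14 in (+/+) and 0.11 in (-/-) lungs.

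**Figure D2:**
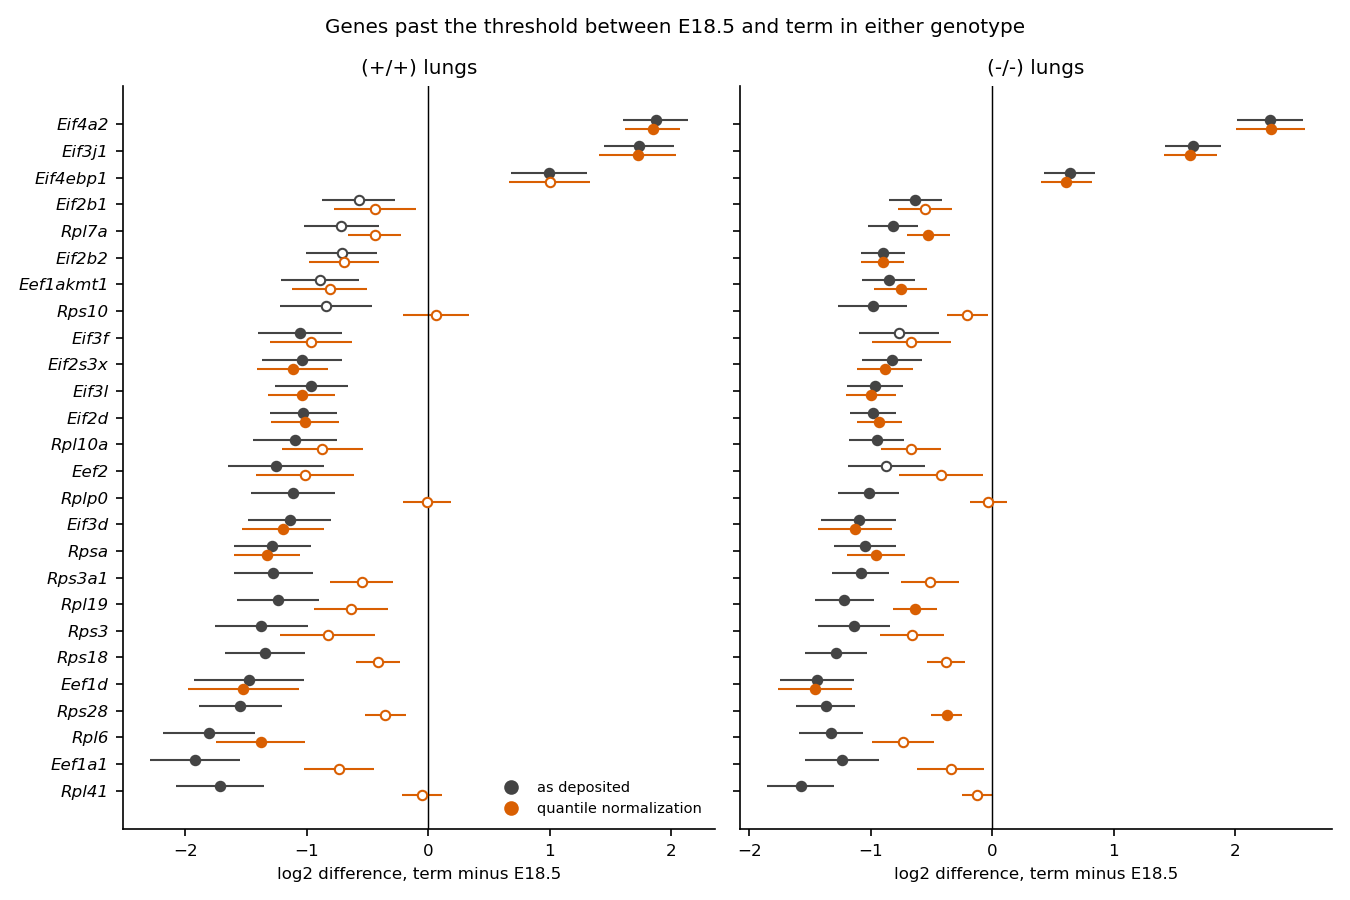
Log2 difference of term minus E18.5 for the 26 genes past an adjusted p of 0.05 in either genotype, in a panel per genotype; grey is as deposited, orange is after quantile normalization, bars are the SE of the fit and filled points have an adjusted p under 0.05. Eif4a2 and Eif3j1 keep their position under both settings, while Rpl41, Rplp0 and Rps28 move towards 0 in orange.

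Among the large subunit proteins, Rpl6, Rpl10a, Rpl19, Rpl41 and Rplp0 were lower at term in both genotypes, and Rpl7a in (-/-) lungs. Rpl41, a very short basic protein on the surface of the ribosome, had signals of 12979, 24882, 23304, 29159 and 13920 at E18.5 in (+/+) replicates I to M, and of 6760, 5953 and 5460.5 at term in N to P. In (-/-) replicates A to E they were 24181, 27232, 23797, 13094 and 16449, and in F to H 6984, 8832 and 5022.5. Every term array lay below every E18.5 array in both genotypes. The difference was -1.71 on the log2 scale (SE 0.36, 3.28-fold lower, limma adjusted p = 0.00505) in (+/+) lungs and -1.58 (SE 0.28, 2.98-fold lower, adjusted p = 0.0022) in (-/-) lungs. After quantile normalization it was -0.05 and -0.12 (adjusted p = 0.856 and 0.485).

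Rpl6, a large subunit protein that binds the ribosomal RNA, differed by -1.80 (SE 0.38, adjusted p = 0.00488) in (+/+) and by -1.33 (SE 0.27, adjusted p = 0.00426) in (-/-) lungs. Its signals were 4225.7 to 7167.5 at E18.5 and 854 to 2842 at term in (+/+) lungs, and 3870 to 8068 and 1758 to 2878.5 in (-/-) lungs, with no overlap of the times. It was lower with quantile normalization too in (+/+) lungs (-1.38, adjusted p = 0.0228), while in (-/-) lungs it was at -0.74 with an adjusted p of 0.0513. Rpl19 differed by -1.24 and -1.22 as deposited, and after quantile normalization passed in (-/-) lungs alone (-0.63, adjusted p = 0.0237). Rplp0, which carries the acidic stalk where elongation factors bind, differed by -1.11 and -1.02 as deposited and by -0.01 and -0.03 after quantile normalization. Rpl10a did not pass after it in either genotype (-0.87 and -0.67, adjusted p = 0.0873 and 0.0629), while Rpl7a did in (-/-) lungs (-0.53, adjusted p = 0.0469).

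Among the small subunit proteins, Rps3, Rps3a1, Rps18, Rps28 and Rpsa were lower at term in both genotypes, and Rps10 in (-/-) lungs. Rpsa, which also serves as a laminin receptor at the cell surface, had signals of 1178, 2017, 2289, 1787 and 1497 in E18.5 (+/+) replicates I to M and of 652, 501 and 1017 at term in N to P. In (-/-) lungs they were 2349.5, 2559, 1937, 1405 and 1615 in A to E, and 863, 730.0 and 1252 in F to H. The times did not overlap in either genotype. The difference was -1.28 (SE 0.32, 2.43-fold lower, limma adjusted p = 0.0117) in (+/+) and -1.05 (SE 0.26, 2.06-fold lower, adjusted p = 0.0113) in (-/-) lungs. It remained after quantile normalization, at -1.33 (adjusted p = 0.00713) and -0.96 (adjusted p = 0.0134). As deposited, the call was lost without N or O in (+/+) lungs and without F or G in (-/-) lungs, with adjusted p up to 0.0774.

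Rpsa was the only small subunit protein lower under both settings in (+/+) lungs, and Rpsa and Rps28 were in (-/-) lungs. Rps28 differed by -1.54 and -1.37 as deposited, and by -0.35 (adjusted p = 0.161) and -0.37 (adjusted p = 0.0499) after quantile normalization. Rps18, of the head of the small subunit, differed by -1.35 and -1.29 as deposited (adjusted p = 0.0113 and 0.00387) and by -0.41 and -0.38 after it (adjusted p = 0.13 and 0.0892). Rps3, Rps3a1 and Rps10 did not pass after it, with Rps3 at -0.83 and -0.66 (adjusted p = 0.16 and 0.085), Rps3a1 at -0.55 and -0.51 (adjusted p = 0.157 and 0.129) and Rps10 at -0.21 in (-/-) lungs (adjusted p = 0.384). In all, 10 of the 25 ribosomal proteins tested were lower in (+/+) lungs, 5 of each subunit, where 7.99% of all probe sets were. In (-/-) lungs 12 of 25 were, 6 of each subunit, against 13.0%. After quantile normalization 2 of 25 were lower in (+/+) lungs, against 6.79%, and 4 of 25 in (-/-) lungs, against 11.0%. None of the 25 was higher as deposited. After quantile normalization Rps19 was higher in (+/+) lungs (1.39, adjusted p = 0.034, against 1.03 and 0.057 as deposited), and Rps4x in (-/-) lungs (0.58, adjusted p = 0.046, against -0.11 and 0.721).

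Of the elongation factors, Eef1a1 and Eef1d were lower at term in both genotypes, and Eef2, which moves the ribosome along the mRNA, was lower in (+/+) lungs. Eef2 differed by -1.25 (SE 0.40, adjusted p = 0.0388) there as deposited and by -1.01 after quantile normalization, where it did not pass (adjusted p = 0.0982). Eef1a1, which carries aminoacyl-tRNA to the ribosome, had signals of 9730.5 to 20241 at E18.5 and 2483 to 4589 at term in (+/+) lungs, and of 5671.5 to 16877 and 3664 to 5166 in (-/-) lungs. The times did not overlap. Its difference of -1.92 (SE 0.37, 3.78-fold lower, limma adjusted p = 0.00306) was the largest fall of any member in (+/+) lungs, with -1.24 (SE 0.31, adjusted p = 0.0117, and 0.0531 without H) in (-/-) lungs. After quantile normalization it was -0.73 and -0.34, with adjusted p of 0.0982 and 0.379.

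Eef1d, a subunit of the exchange factor that reloads eEF1A, was lower under both settings. Its signals were 374, 575.5, 174, 682 and 532 in E18.5 (+/+) replicates I to M and 100.3, 76.5 and 355 at term in N to P. In (-/-) lungs they were 457.5, 192, 589, 427 and 500.1 in A to E and 150.1, 115.5 and 158 in F to H. In (+/+) lungs replicate P at term lay above replicate K at E18.5, while in (-/-) lungs the times did not overlap. The differences were -1.48 (SE 0.45, adjusted p = 0.0332) and -1.44 (SE 0.30, adjusted p = 0.00546), and -1.52 and -1.46 after quantile normalization. In (+/+) lungs the call was lost without any 1 of J, L, M, N and O, and in (-/-) lungs it was kept without any array. Eef1akmt1, a lysine methyltransferase of eEF1A, was lower in (-/-) lungs (-0.85, adjusted p = 0.014; -0.75 and 0.0256 after quantile normalization).

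**Figure D3:**
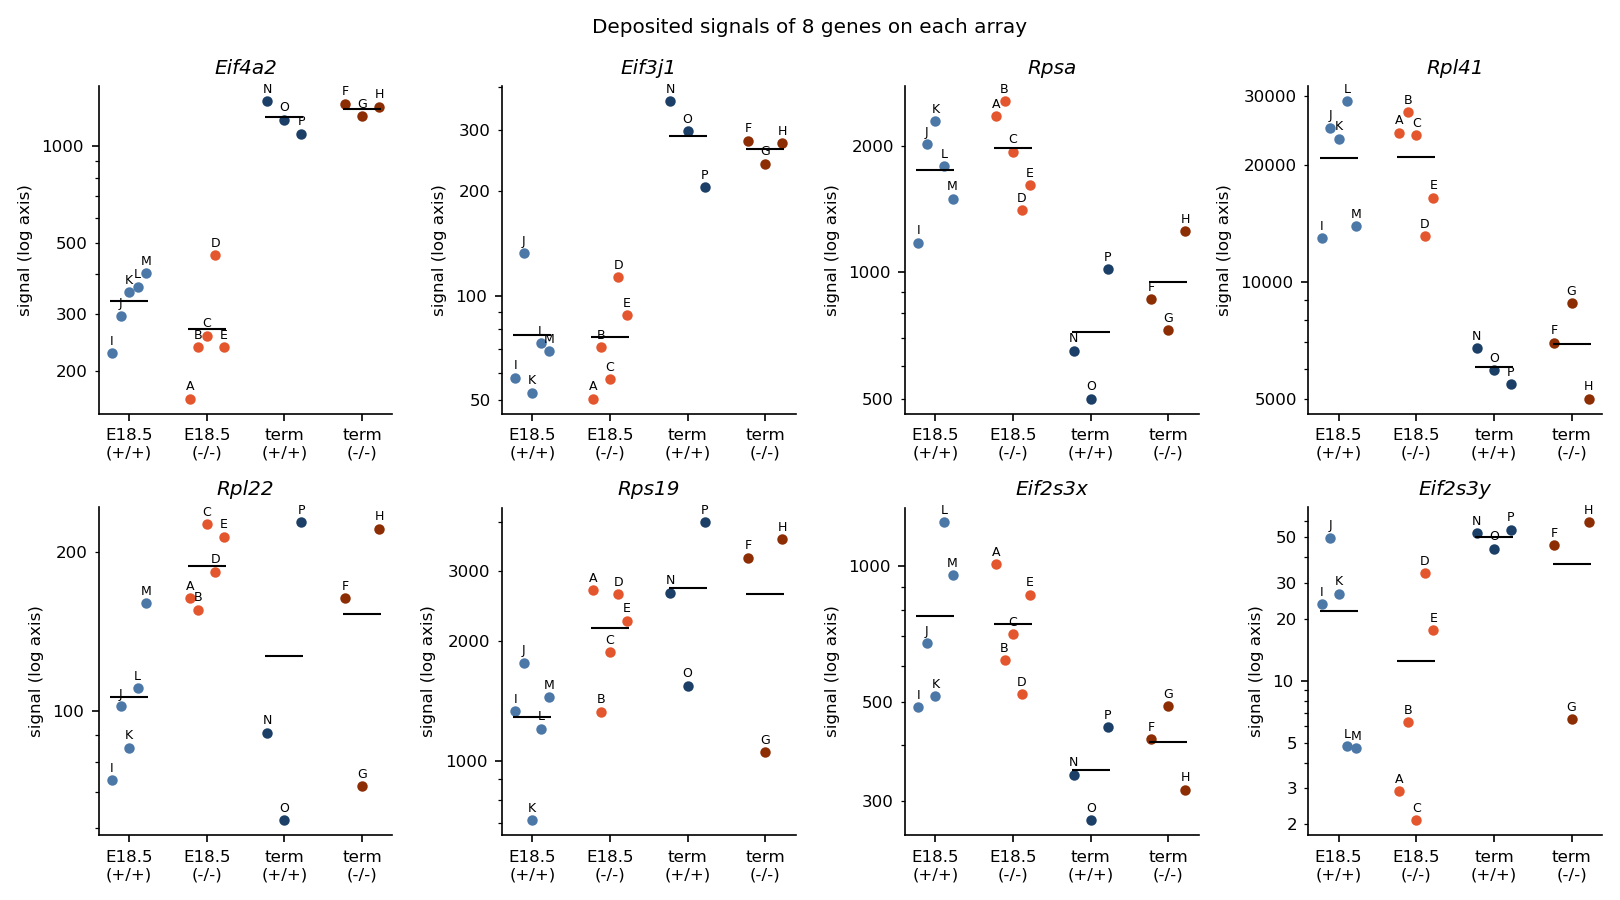
Deposited signal on a log axis of 8 genes on each of the 16 arrays, by time and genotype; points are arrays and lines are group means. Eif4a2 and Eif3j1 lie higher on all term arrays, and Rpl41 lies lower on all of them. Rpsa lies lower at term within each genotype, but term (-/-) replicate H is above E18.5 (+/+) replicate I. Rpl22 and Rps19 show the genotypes at E18.5, and Eif2s3x and Eif2s3y are the X- and Y-linked pair.

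Of 29 initiation factors tested in (+/+) lungs, 2 were higher and 5 lower at term, where 10.6% and 7.99% of all probe sets were. Of 27 tested in (-/-) lungs, 2 were higher and 6 lower, against 13.8% and 13.0%. The largest rise was that of Eif4a2, an RNA helicase that unwinds the start of the mRNA as part of the cap complex. Its signals were 227, 297, 352, 365 and 402 in E18.5 (+/+) replicates I to M and 1386, 1211 and 1094 at term in N to P. In (-/-) lungs they were 164, 237, 257.5, 457.5 and 237 in A to E and 1357.5, 1243 and 1329 in F to H. Each term array was over every E18.5 array. The difference was 1.87 (SE 0.27, 3.66-fold higher, limma adjusted p = 0.000444) in (+/+) and 2.28 (SE 0.27, 4.87-fold higher, adjusted p = 0.000313) in (-/-) lungs, with 1.85 and 2.29 after quantile normalization. The related helicase Eif4a1 differed by 0.55 (SE 0.38, adjusted p = 0.319) and 0.45 (SE 0.53, adjusted p = 0.547).

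Eif3j1, a loosely bound subunit of eIF3 that helps it onto the small subunit, had signals of 58.1, 133, 52.5, 73.0 and 69.1 in E18.5 (+/+) replicates I to M and 364, 298 and 206 at term in N to P. In (-/-) lungs it had 50.5, 71.0, 57.4, 113 and 87.8 in A to E and 279.8, 240.1 and 275 in F to H. The times did not overlap. The difference was 1.74 (SE 0.29, 3.33-fold, limma adjusted p = 0.00127) in (+/+) and 1.65 (SE 0.23, 3.14-fold, adjusted p = 0.000696) in (-/-) lungs, with 1.73 and 1.63 after quantile normalization.

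Other subunits of eIF3, the scaffold between mRNA and small subunit, moved the other way. Eif3d, which can bind the cap itself, differed by -1.14 (SE 0.34, adjusted p = 0.0298) and -1.10 (SE 0.31, adjusted p = 0.021), and Eif3l by -0.96 (SE 0.30, adjusted p = 0.0365) and -0.97 (SE 0.23, adjusted p = 0.00988). Eif3d overlapped between the times in both genotypes, with replicates P and H at term at 408 and 457 against 149 to 226 on F and G and 107.6 to 154 on N and O. Eif3f was lower in (+/+) lungs as deposited (-1.06, adjusted p = 0.0441), with -0.97 and 0.0647 after quantile normalization. The 6 others of the 10 eIF3 genes did not pass the test in either genotype, among them Eif3a at 0.41 and 0.56 and Eif3m at 0.71 and 0.44.

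Of eIF2, which brings the initiator tRNA, the X-linked γ subunit Eif2s3x was lower in both genotypes, by differences of -1.04 (adjusted p = 0.0388) and -0.83 (adjusted p = 0.0271). The times also differed in the signals of the sex-linked genes Xist and Eif2s3y, which are given below. The part of the pups' sex in this fall of Eif2s3x was not tested. Eif2d, which can deliver the initiator tRNA without eIF2, had signals of 194, 167, 110.3, 133 and 167 in E18.5 (+/+) replicates I to M and 73.9, 39.5 and 95.7 at term in N to P. In (-/-) lungs it had 122.8 to 160.3 at E18.5 and 51.5 to 78 at term. The times did not overlap, with differences of -1.03 (SE 0.28, adjusted p = 0.0193) and -0.98 (SE 0.19, adjusted p = 0.0034). Of eIF2B, the exchange factor that reloads eIF2 with GTP, the subunits Eif2b1 and Eif2b2 were lower in (-/-) lungs, at -0.63 (adjusted p = 0.0448) and -0.90 (adjusted p = 0.00415), with -0.57 and -0.71 in (+/+) lungs, where they did not pass. Eif3d, Eif3l, Eif2d and Eif2s3x were lower under both settings in both genotypes, and Eif2b2 in (-/-) lungs, where Eif2b1 was at -0.56 after quantile normalization (adjusted p = 0.0831). With 1 array left out, Eif2d lost its call in (+/+) lungs without N or O, and Eif3d without J, L, N or O. Eif3l lost its call there without J, L, M, N or O. In (-/-) lungs Eif2d, Eif3l and Eif2b2 kept theirs. For Eif2s3x the calls over time with an array left out are not given.

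Among the kinases and binding proteins, Eif4ebp1, which binds eIF4E and blocks the cap complex until mTOR phosphorylates it, was higher at term. Its signals were 82.9, 60.7, 155, 86.5 and 152 in E18.5 (+/+) replicates I to M and 279.6, 248 and 149 at term in N to P, so that P lay below K and M. In (-/-) lungs they were 105 to 156.5 at E18.5 and 181 to 263 at term, with no overlap. The difference was 1.0 (SE 0.31, 1.99-fold, limma adjusted p = 0.0363) in (+/+) and 0.64 (SE 0.21, adjusted p = 0.0385) in (-/-) lungs, with adjusted p of 0.0555 and 0.047 after quantile normalization. The call was lost without any 1 of 5 of the 8 arrays in (+/+) and of 6 of the 8 in (-/-) lungs. Its relative Eif4ebp2 differed by -0.21 and -0.39 (adjusted p = 0.593 and 0.16). The eIF2 kinases Eif2ak2, Eif2ak3 and Eif2ak4 stayed below the filter in all comparisons, and Eif2ak1, the haem-regulated kinase, differed by 0.40 and 0.89 (adjusted p = 0.401 and 0.105).

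The fall of the ribosomal proteins went with how high a probe set's signal was. The highest signal of an array was 12979 to 29524 at E18.5 and 6159 to 10576 at term, whatever the gene. The 12 members with a mean log2 value above 12 all had lower signals at term, with median differences of -1.18 and -1.05. Of the 29 other probe sets above 12, 28 were lower in (+/+) and 29 in (-/-) lungs, with medians of -0.96 and -0.92. The 14 of these that carry no name of a ribosomal protein or factor had medians of -0.90 and -0.95. Between 10 and 12, where the 10 members had medians of -0.92 and -0.84, the 179 others had -0.37 and -0.30. Surfactant protein C (Sftpc) and the globin Hba-a1, both with very high signals, differed by -1.45 and -1.52 in (+/+) lungs as deposited and by -0.04 and 0.15 after quantile normalization. Over the ribosomal proteins tested, the median went from -0.84 to -0.12 in (+/+) and from -0.69 to -0.21 in (-/-) lungs. The part of the array's upper range in these falls was not tested, and the time of sampling and any batch cannot be told apart.

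**Figure D4:**
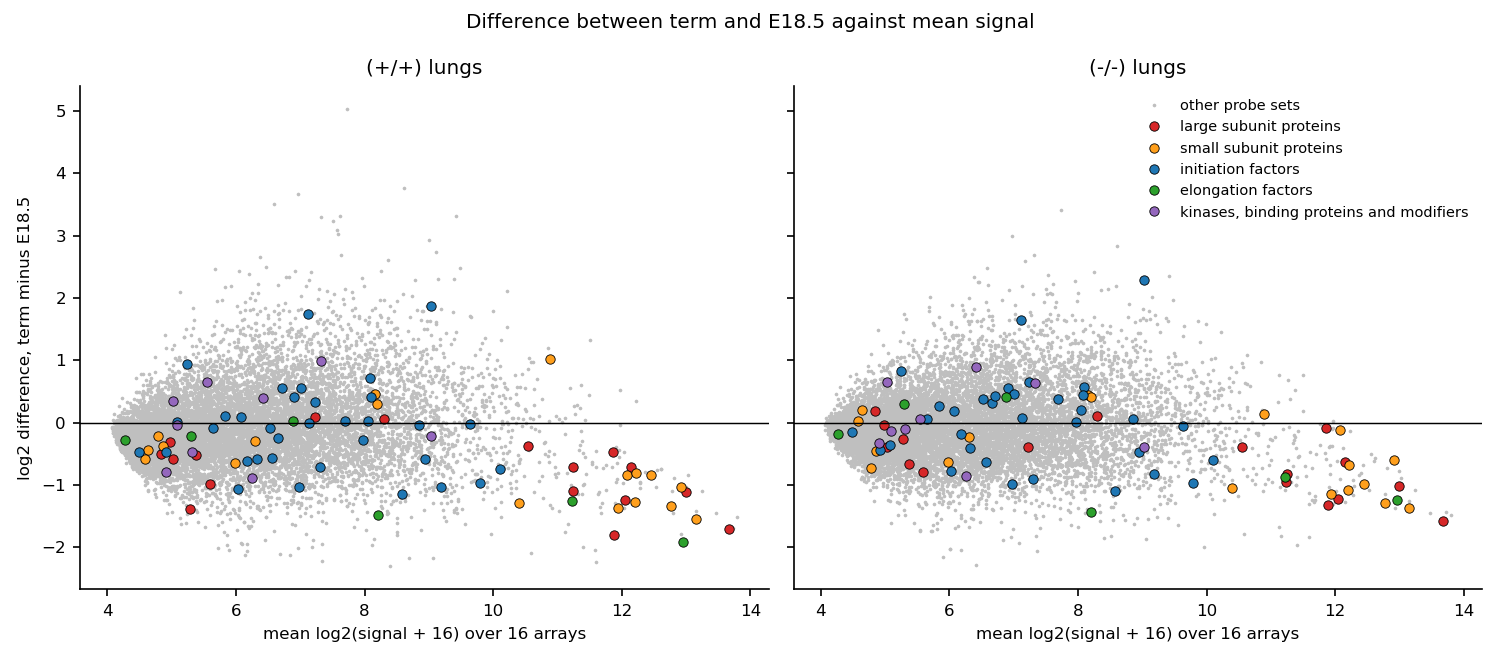
Log2 difference of term minus E18.5 against the mean log2(signal + 16) over all arrays, a panel per genotype; small points are all probe sets and coloured points are the members by class. Above a mean of 12, members and other probe sets alike lie below 0.

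The arrays also differed in the ratio of the 3′ to the 5′ GAPDH control, a measure of how complete the labelled RNA was. It was over 1.4 on replicates B, K and L at E18.5 and G, N and O at term, at 1.43 to 2.63, and 0.827 to 1.16 on the 10 others. At term, 13 of the 59 members tested were lower on G, N and O than on F, H and P without overlap, where 14.2% of all probe sets were, and 6 were higher, where 10.7% were. The 13 include Eef1d, Eif3d, Eif3l, Rpl6 and Rpsa, and the 6 include Eif4ebp1 and Rps10. At E18.5, 2 of 61 members were lower on the 3 arrays with a high ratio, against 1.45%, and 2 were higher, against 1.41%. The arrays with a low ratio include P alone of the term (+/+) lungs and F and H of the term (-/-) lungs, so that the values over time on them are given with no test. On these arrays the median difference was -0.61 for the large and -0.80 for the small subunit proteins in (+/+) lungs, and -0.58 and -0.74 in (-/-) lungs.

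At E18.5 the genotypes did not differ in any member at an adjusted p under 0.05 in limma, where 0.0340% of all probe sets tested did. At an unadjusted p under 0.05, 2 of the 61 members tested were higher in (-/-) lungs, where 2.69% of all probe sets were, and none was lower, where 2.62% were. For no member did the genotypes separate without overlap, against 0.663% of probe sets higher and 0.476% lower. With an array left out, 2 were higher each time, and up to 5 were lower (5 without D, 4 without I). The median log2 difference of (-/-) minus (+/+) was 0.04 for large subunit proteins, -0.07 for small subunit proteins and -0.14 for initiation factors, with -0.05 over all probe sets.

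The 2 were Rpl22 and Rps19. Rpl22, a large subunit protein that can be lost without loss of the ribosome, had signals of 163, 155, 226, 183 and 214 in (-/-) replicates A to E and 73.8, 102, 85.1, 110.4 and 159.7 in (+/+) replicates I to M. Only replicate M of the (+/+) lungs reached into the (-/-) range. The difference was 0.77 (SE 0.21, 1.70-fold, unadjusted p = 0.00186, limma adjusted p = 0.634; exact permutation p = 0.0159). A second probe set of Rpl22, with lower signals, differed by -0.06, and its correlation with the first over the 16 arrays was -0.41. At term the signals of the first were 163, 71.9 and 221 in (-/-) and 90.8, 62.0 and 227 in (+/+) lungs, with overlap.

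Rps19, a small subunit protein whose loss causes Diamond-Blackfan anaemia in people, had signals of 2689, 1330.4, 1875, 2632 and 2255 in (-/-) replicates A to E and 1332, 1768, 710.1, 1205 and 1449 in (+/+) replicates I to M. Replicate B of the (-/-) lungs lay among the (+/+) arrays. The difference was 0.75 (SE 0.27, 1.68-fold, unadjusted p = 0.0137, limma adjusted p = 0.858; exact permutation p = 0.0397). At term it was -0.13, with 1052 on G and 1548.5 on O against 2653 to 3983 on the others. The 3 E18.5 arrays with a high GAPDH ratio, B, K and L, had the lowest signals of Rps19 at that time, at 710.1 to 1330.4, and 2 of them are (+/+) arrays.

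The lowest unadjusted p among members lower in E18.5 (-/-) lungs were those of Eif2a, which can bring initiator tRNA outside the usual route, and of Rps4x, the X-linked form of a small subunit protein. Eif2a differed by -0.47 (exact permutation p = 0.0397), with 43.6, 43.7, 49.3, 81.8 and 48.8 in (-/-) and 85.4, 103, 69.4, 52.5 and 90.6 in (+/+) lungs. Rps4x differed by -0.62 (SE 0.30, unadjusted p = 0.0566, adjusted p = 0.858). Eif1a, a factor of start codon scanning, differed by -0.59 (SE 0.34, adjusted p = 0.867) and by -0.67 on its second probe set.

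At term none of the 59 members tested differed between genotypes at an adjusted p (0% of all probe sets did) or at an unadjusted p under 0.05, where 0.0850% of probe sets were higher and 0.595% lower in (-/-) lungs. Without replicate P, 5 were higher and 1 lower. Of those tested Rps18 alone separated the genotypes, with 4189, 4801 and 4088 in (-/-) and 3880, 3122 and 3686 in (+/+) lungs (difference 0.29, SE 0.20; exact permutation p = 0.1, below which 3 against 3 cannot go), where 1.38% of probe sets were higher without overlap, and no member was lower without it, against 1.94%. Of the 35 ribosomal proteins 29 had higher means in (-/-) lungs, as had 6332 of all 12422 probe sets, with a median difference of 0.12 against 0.00. Probe sets with a high signal shared this. Above a mean log2 value of 12, none of the 12 members and 1 of the 29 other probe sets was lower in (-/-) lungs, with medians of 0.14 and 0.19. Over the ribosomal proteins tested the median went from 0.13 as deposited to 0.05 after quantile normalization. G is the one (-/-) array with a high GAPDH ratio, and N and O are the 2 (+/+) arrays with one. Below the filter, and so without a test by limma, Rpl35a, Rpl39 and Rps15 lay higher on all (-/-) arrays, at low signals of 2.8 to 25.4. The share of all probe sets below the filter that did so was not counted, so that nothing is read from these genes. Rpl39, a small protein of the large subunit, had signals of 16.1, 14.8 and 14.2 in (-/-) and 10.2, 13.3 and 11.4 in (+/+) lungs, which is a difference of 0.17 (exact permutation p = 0.1). Among the members tested Eef2 had the largest difference, 0.63 (SE 0.46, unadjusted p = 0.203), with 1999, 1145 and 2831 in (-/-) and 892, 778.5 and 2487 in (+/+) lungs.

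The change over time did not differ between the genotypes in any of the 64 members tested. No probe set passed an adjusted p under 0.05 (0%), and no member had an unadjusted p under 0.05, against 0.666% of probe sets with a higher and 0.805% with a lower difference in (-/-) lungs. The lowest p of the limma fit were those of Rps4x (0.73, SE 0.44, unadjusted p = 0.109) and Rps19 (-0.88, SE 0.55, unadjusted p = 0.124). Members past the threshold over time in 1 genotype, such as Eef2 or Rps10, are thus not shown to differ between them.

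Eif2s3x and Eif2s3y encode the γ subunit of eIF2 from the X and the Y chromosome, and the Y copy is expressed in males alone. Eif2s3y had signals of 2.9, 6.3, 2.1, 33.4 and 17.6 in E18.5 (-/-) replicates A to E and 23.5, 49.6, 26.5, 4.8 and 4.7 in (+/+) replicates I to M. At term it had 45.5, 6.5 and 58.9 in F to H and 52.3, 43.9 and 54.2 in N to P. Xist, expressed from the inactive X of females, was 75.8 on G and 6.7 to 10.6 on the 5 other term arrays, and 14.3 to 99.8 at E18.5. Eif2s3y was at 23.5 or more on 5 of the 6 term arrays and on 4 of the 10 E18.5 arrays. Eif2s3x differed by -0.01 between genotypes at E18.5, where its signals were 519 to 1010.5 in (-/-) and 485.5 to 1252 in (+/+) lungs. At term it was 318 to 488.5 on (-/-) and 272.5 to 439 on (+/+) arrays, and highest on G. The sex of the pups is not given in the sources used here. With Xist as a covariate in the limma fit, none of the 18 members lower in (+/+) lungs passed, while 21 were lower in (-/-) lungs, as without it. In (+/+) lungs Xist was 14.3 to 80.0 at E18.5 and 6.7 to 10.2 at term, so that this covariate largely went with time. That fit can hardly separate Xist from time. In (-/-) lungs G, at 75.8, lay within the E18.5 range of 14.7 to 99.8. The 2 counts are thus no comparison of the genotypes. For the 15 of the lower members that the naming rule took in (+/+) lungs, the differences were -1.92 to -0.96 (median -1.28) without Xist and -1.90 to -0.69 (median -1.17) with it. Among them Rpl6 was at -1.90 (adjusted p = 0.0814), Rpsa at -1.54 (adjusted p = 0.0872) and Eef1d at -0.77 (adjusted p = 0.504) with Xist. In (-/-) lungs all 15 so named were lower with Xist too.

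Other genes of translation were taken from lists of their own. The shares of all probe sets higher and lower at term, against which their counts are read, were 10.6% and 7.99% in (+/+) and 13.8% and 13.0% in (-/-) lungs. Of 47 mitochondrial ribosomal proteins tested, 1 was higher and 4 lower at term in (+/+) lungs, and 1 and 12 in (-/-) lungs, with Mrps34 at 1.02 (adjusted p = 0.00556) and Mrps7 at -1.08 (adjusted p = 0.00371) in the latter. After quantile normalization the counts lower were 4 and 11. Their median over all 61 was -0.15 and -0.05. Of 15 aminoacyl-tRNA synthetases 3 were lower in (+/+) and 2 in (-/-) lungs, and none higher, with 1 and 2 lower after quantile normalization. Among these the glutaminyl enzyme Qars differed by -1.46 (adjusted p = 0.00593) and -0.96 (adjusted p = 0.0256). Of the genes of ribosome biogenesis, 2 of 28 were lower in (+/+) lungs, and 7 of 31 were lower and 1 higher in (-/-) lungs, with 1 and 5 lower after quantile normalization. Nucleolin (Ncl), an abundant nucleolar protein, differed by -1.39 and -1.30, and by -1.45 and -1.33 after quantile normalization.

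Of 12 release, poly(A) and ribosome-associated factors tested, 1 was higher and 2 lower in (+/+) lungs and 1 higher and 3 lower in (-/-) lungs. After quantile normalization this was 1 higher and 1 lower in (+/+) lungs, and none higher and 1 lower in (-/-) lungs. Paip2, which holds the poly(A)-binding protein off the mRNA, was at 1.10 (adjusted p = 0.0109) in (+/+) lungs, and the poly(A)-binding protein Pabpc1 at -1.04 (adjusted p = 0.00568) in (-/-) lungs. Of 14 genes of mTOR and S6 kinase signalling, 1 was higher in (+/+) lungs and none lower, with 2 higher and 1 lower in (-/-) lungs. Ddit4, an inhibitor of mTOR, was higher by 2.07 (adjusted p = 0.00176) and 2.19 (adjusted p = 0.00267), and Atf4, a transcription factor whose mRNA is translated when eIF2 is phosphorylated, was at 0.90 (adjusted p = 0.0624) and 1.16 (adjusted p = 0.0118). None of these genes passed an adjusted p between the genotypes at either time or in the change over time.

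Genes of proliferation were mostly lower at term too. Of 20 tested, 15 were lower at term in (+/+) lungs and none higher, and of 19 tested in (-/-) lungs 11 were lower and 1 higher. After quantile normalization, where the ribosomal proteins tested had medians of -0.12 and -0.21, the proliferation genes tested had -1.31 and -0.75. Of these genes 13 and 10 were lower. Their summed signal over 23 genes was 2814 to 5441 at E18.5 and 1419 to 1683.5 at term in (+/+) lungs, and 2593 to 3452 and 1283 to 1904 in (-/-) lungs. The 11 erythroid genes summed to 13077 to 30896 and 7271 to 7832 in (+/+) lungs, and to 17224 to 30628 and 6818 to 11193 in (-/-) lungs, with 2 of 6 tested lower in each genotype as deposited and, after quantile normalization, none in (+/+) and 1 in (-/-) lungs. The 10 lung epithelial markers summed to 20492 to 37090 and 14190 to 16830 in (+/+) lungs and to 25058 to 41672 and 16388 to 19214 in (-/-) lungs, but the markers went both ways. In (+/+) lungs 4 were higher and 6 lower, with a median difference of -0.07, and 2 of 9 tested passed as higher and 3 as lower. In (-/-) lungs 5 were higher and 5 lower, with a median of 0.01, and 2 of 8 tested passed as higher and 3 as lower. After quantile normalization 1 was lower in each genotype. T1α itself was 1.4 to 30.0 on the (-/-) arrays and 39.7 to 214.9 on the (+/+) arrays. Genes of myeloid cells went both ways. Of the 9 neutrophil genes 6 were higher and 3 lower in (+/+) lungs (median 0.30), and 4 and 5 in (-/-) lungs (median -0.04). Of the 10 macrophage genes 4 were higher and 6 lower in each genotype (medians -0.11 and -0.09). Of 6 neutrophil genes tested in (+/+) lungs 2 were higher at term, with S100a9 at 1.47 (adjusted p = 0.00594), and of 5 tested in (-/-) lungs 2 were higher and 1 lower. Of 7 macrophage genes tested 1 was higher in each genotype, Cd14, at 1.4 (adjusted p = 0.00608) and 0.82 (adjusted p = 0.0128). Of all probe sets tested, 10.6% were higher in (+/+) and 13.8% in (-/-) lungs. The 9 neutrophil genes summed to 397.1 to 787.5 at E18.5 and 870.4 to 1285.4 at term in (+/+) lungs, and to 498.3 to 650.4 and 636.5 to 742.7 in (-/-) lungs. Markers of liver, heart and muscle reached 25043 on 1 E18.5 (+/+) array, against 1402 as the lowest of that group. The other groups also ranged widely, from 1700 to 7480 in E18.5 (-/-), 1548 to 7275 in term (+/+) and 1409 to 11395 in term (-/-) lungs. None of these markers that were tested passed in any comparison. The part of these cells in the changes of the members was not tested.

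Within groups the members did not vary as 1 block. After each group's mean was taken off, the Pearson correlation of a gene with the median of the other members over the 16 arrays had class medians of 0.13 for the proteins of each subunit and 0.19 for elongation factors, and -0.04 for the kinases and binding proteins. It was highest for Rpl37a (0.62), Eif5 (0.55) and Rps4x (0.54) and lowest for Eif4ebp1 (-0.64) and Eif3c (-0.51). These values are a description, since all points share their arrays. In all comparisons, 20 of the 84 members stayed below the filter, among them the cap-binding factor Eif4e, the translation factor Eif5a, the elongation factor Eef1g and the ribosomal proteins Rps14, Rps15, Rps20, Rpl32 and Rpl38. Members with several probe sets numbered 24, and where both measured a gene they could differ. Rps28 had a second probe set that followed the first (r = 0.85; -0.96 and -0.92 over time), while that of Rpl10a differed by 0.18 and -0.53 where the first differed by -1.10 and -0.95.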

How the data were processed

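Whole lung RNA of 16 mice was measured on 1 array each. The deposited values are background-subtracted signal intensities, which the authors computed per probe set with Microarray Suite 5.0, setting perfect match against mismatch probes, and then scaled. Their trimmed mean was 100 to 100.1 on each array. Of 12488 probe sets, 66 are controls, 10833 have 1 symbol, 396 several and 1193 none in the platform annotation. Those with several symbols were not used, which left out 35 gene names of the kind described. The members and lists were chosen with earlier results of these data known.

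Differences were taken on log2(signal + 16), without any scaling beyond that deposited. Testing was limited to probe sets with a group median over 47.7 to 53.4, depending on the comparison, a level set from the share of present calls in the methods. This left 5879 to 6458 probe sets. Linear models with a moderated, intensity-dependent variance were fitted in limma 3.58.1 (R 4.3.3), 2-sided, with Benjamini-Hochberg adjustment over all probe sets tested. Single genes were also compared by the exact permutation test of means. Fold changes are on the log2(signal + 16) scale and understate those of low signals. Named are the members with the lowest p in each comparison, up to 15 past the threshold in each direction, those members that the study names for these arrays (Rpl22, Rps19, Rpl39 and Eif1a), and the Eif2s3x and Eif2s3y pair, and of other lists the 2 lowest p. Eif3f, Eif2b1, Rps10, Eef1akmt1, Eif4ebp2, Eif2ak1 and the genes given for their correlation or, other than Rpl39, as below the filter lie outside that rule and were named after their values were seen. Sequences are those of RefSeq on GRCm38.p6. Other tools were Python 3.11.15, pandas 2.3.3, numpy 2.4.6, scipy 1.17.1 and matplotlib 3.10.9.

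The alternatives were 2 other normalizations (quantile, and centring on the median), no pseudocount or one of 64, no filter or a stricter one, a joint fit of the 4 groups, a constant prior variance, quality weights, the methods' t-test, covariates (Xist, or the GAPDH ratio), the mean of a gene's probe sets, and leaving out each array. No pair of arrays had over 1.16% of equal signals. Precision is limited by the number of arrays, and each array is 1 lung.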

Additional observations from a re-analysis of the deposited data

Results flagged for a closer look

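Groups of 5 arrays were examined for a single array far from the rest in the members chosen for naming and in the mean levels of the classes, 86 groups in all, and 2 stood out where chance gives about 1 in 20. The signal of Eif2a was 81.8 on replicate D of the E18.5 (-/-) lungs and 43.6 to 49.3 on the other 4, so that the gap took 0.8156 of the range of the group on the log2(signal + 16) scale, above the limit of 0.71 for 5 samples. The signal of Eif4a1 was 33.4 on replicate K of the E18.5 (+/+) lungs and 116 to 168 on the other 4, with a gap of 0.7504 of the range.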

How the results depend on the processing

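Array number and normalization set the limits of these results, and array I had a median signal of 61.0 against 35.8 to 47.6 on the others. Eif4a2 kept its rise at an adjusted p under 0.05 in all 21 alternatives in each genotype, and Eif3j1 in 20 of 21 in (+/+) lungs, where the exception was Xist as a covariate, and in 21 of 21 in (-/-) lungs. The number of members lower in (+/+) lungs, 18, was 7 with quantile normalization, 5 with centring on the median, 6 with no filter, 0 with the methods' t-test, 0 with Xist and 8 with the GAPDH ratio as a covariate, and 4 to 21 with an array left out (4 without N, 5 without O, 9 without J and 11 without L). In (-/-) lungs, 21 became 11 with quantile normalization and 8 with the methods' t-test. The 3 members higher became 1 with Xist in (+/+) lungs, and 5 with centring and 6 with array weights in (-/-) lungs. The cause was not tested.

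Class medians over time moved as follows, for large subunit, small subunit and elongation classes in (+/+) lungs. They were -0.34, -0.16 and -0.39 with quantile normalization, -1.05, -0.85 and -1.18 with no pseudocount, and -1.06, -0.96 and -1.26 with the methods' t-test. Both subunits were at -0.57 and -0.59 with centring, -0.48 and -0.59 with a pseudocount of 64, and -0.58 and -0.61 with all probe sets of a gene. In (-/-) lungs the subunits were at -0.23 and -0.18 with quantile normalization, -0.82 and -0.81 with no pseudocount, -0.38 and -0.30 with 64, and -0.82 and -0.80 with the t-test. The small subunit was at -0.47 with Xist and -0.74 on arrays with a GAPDH ratio under 1.4, the large subunit at -0.47 with all probe sets, and elongation factors at -0.93 with no pseudocount and -1.08 with the t-test. That split by the GAPDH ratio was chosen after seeing the data, and in it 1 array, P, stands for the term (+/+) lungs. Initiation factors in (+/+) lungs were at 0.0852 with centring, -0.23 with Xist and -0.17 under the split. The kinases and binding proteins there were at 0.54 with quantile normalization, 0.49 with centring, 0.51 with no pseudocount, 0.14 with 64 and 0.22 under the split. Their difference between genotypes over time was 0.30, and 0.54, 0.11, 0.11 and 0.0703 with no pseudocount, 64, array weights and the split. Under the split the E18.5 genotype medians were 0.16 for the large subunit and -0.24 for the kinases and binding proteins, and the genotype differences over time were -0.11, -0.14 and -0.0941 for large subunit, small subunit and elongation factors.

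With an array left out, medians ranged from -0.83 to -0.66 for the large subunit, -1.14 to -0.64 for elongation factors and 0.21 to 0.42 for the kinases and binding proteins over time in (+/+) lungs, and from -0.82 to -0.48 for the small subunit in (-/-) lungs. Between genotypes they ranged from -0.19 to 0.0327 for the kinases and binding proteins at E18.5, from -0.0235 to 0.19 for the small subunit and 0.00183 to 0.46 for elongation factors at term, and in the change over time from 0.00542 to 0.23 and 0.17 to 0.74 for those 2 classes. Of single genes, Eif2s3x at E18.5 (-0.01) was at 0.0429 with centring and at 0.05, 0.0023, 0.11, 0.19 and 0.09 without B, C, D, L and M, and at -0.15 without I. At term Eif2s3y (-0.49) was at 0.0312 with Xist and 0.0408 without G, and Eif4g3 (-0.27) at 0.0497 without N. No paired analysis was possible because the replicate letters are not shared between groups.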
